A study of Mus musculus with 6 samples.

Results

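Krüppel-like factors are transcription factors that bind GC-rich and CACCC sequences through 3 zinc fingers at their C-terminal end. The 10 members described here, Klf2, Klf3, Klf4, Klf5, Klf6, Klf7, Klf9, Klf10, Klf13 and Klf15, were found by gene name, and all 10 were among the 28154 genes of the deposited table. RNA sequencing compared cells of the mouse mammary carcinoma line 4T1 that were labelled as control (3 libraries) with 4T1 cells labelled as corticosterone-treated (3 libraries). Corticosterone is the main glucocorticoid of rodents, and it acts through the glucocorticoid receptor. The sources used here give no dose, duration or vehicle, and no transgene. The line is a single tumour-derived line grown in culture, and nothing in the labels ties a replicate to a culture of its own. The p-values therefore describe the spread among these 6 libraries, which may be technical.

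The members fall into groups that differ in the proteins they recruit. Klf2, Klf4, Klf5, Klf6 and Klf7 are mostly activators that work with acetyltransferases. Klf3 represses through the corepressor CtBP, and Klf9, Klf10 and Klf13 repress through Sin3A and its histone deacetylases. Klf15 stands in neither group. Klf9 and Klf15 are known as direct targets of the glucocorticoid receptor in several mammalian tissues, whereas Klf4, Klf6 and Klf10 are known as early-response genes of growth factor, stress or TGF-beta signalling.

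Libraries held 62.2 to 66.2 M counts in 22244 to 22683 detected genes. The epithelial markers Krt8 (428 FPKM in controls), Krt18 (755 FPKM), Epcam (101 FPKM) and Cdh1 (92.7 FPKM) were abundant, FPKM being fragments scaled to transcript length and library depth. Of the markers of other cell types, the T cell gene Cd3e (0.0101 FPKM) and the endothelial gene Cdh5 (0.0386 FPKM) were close to 0, and the pan-leukocyte gene Ptprc stood at 0.198 FPKM. Summed over 6 leukocyte markers the level was 24.6 to 26.3 FPKM in controls and 21.8 to 26.4 FPKM with corticosterone, most of it from Cd68 (22.3 FPKM in controls) and Itgam (2.44 FPKM). The 5 fibroblast markers summed to 12.0 to 13.3 FPKM in controls and 12.4 to 13.5 FPKM with corticosterone, mostly Col1a2 (5.66 FPKM in controls), Col1a1 (4.96 FPKM) and Pdgfra (1.91 FPKM). The 4 endothelial markers summed to 0.204 to 0.286 FPKM in controls and 0.0983 to 0.123 FPKM with corticosterone. At an adjusted p under 0.05 (edgeR) 0 leukocyte, fibroblast and endothelial markers were called. Across all tested genes 1.35% rose and 1.46% fell by that rule. At an unadjusted p under 0.05 there was 1, Pecam1, lower with corticosterone. How many of all tested genes passed that unadjusted threshold was not counted, here or below. Of 7 epithelial markers 0 were called, and 2 had an unadjusted p under 0.05 (edgeR). These were Krt14, lower (log2 fold change -0.33), and Krt19, higher (0.24). Krt19 was called higher in some of the other fits given below. As a check of the treatment, the receptor targets Per1 and Tsc22d3 were 3.37-fold and 2.94-fold higher in treated cells. In ribosomal protein transcripts, corticosterone replicate 2 differed from both other treated libraries. Their mean log2 level over 82 genes, relative to the control mean, was -0.047, -0.004 and 0.051 in control replicates 1, 2 and 3 and -0.192, 0.111 and -0.246 in corticosterone replicates 1, 2 and 3.

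Corticosterone raised 4 of the 9 tested members and lowered 0. Klf9 was 2.43-fold higher, Klf6 1.77-fold, Klf5 1.47-fold and Klf4 1.38-fold. In RNA from whole cultures, more RNA per cell and more cells with the transcript cannot be told apart. Across all 17283 tested genes 1.35% rose, by the same rule of an adjusted p under 0.05 (edgeR quasi-likelihood test, Benjamini-Hochberg). The other 5 tested members did not pass, among them Klf3 with an adjusted p of 0.0749 (edgeR), and Klf15 had too few counts to be tested. The median log2 fold change of the 9 tested members was 0.35, against a median of 0.0001 over all tested genes. For 7 of the 9 the treated libraries all lay above the control libraries in CPM (counts scaled to library depth), a pattern seen in 10.6% of all tested genes. For Klf13, which is among them, the groups overlapped in FPKM. No member fell at an unadjusted p under 0.05 (0 of 9), and 0 were lower with DESeq2 and 0 with limma on log2(FPKM + 1). Since 1.46% of all tested genes fell at an adjusted p under 0.05, 0 of 9 by that rule is close to that share. For the unadjusted p no share of all tested genes was counted.

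**Figure D1:**
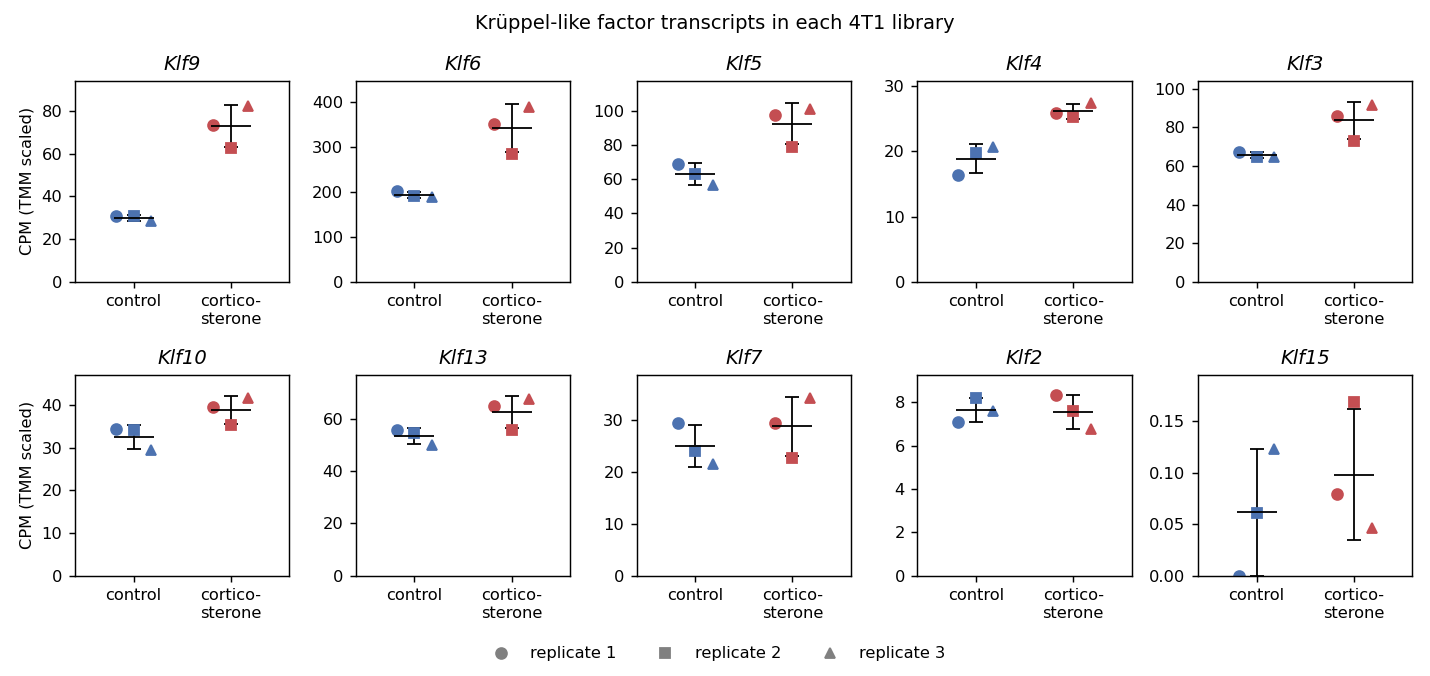
Level of the 10 members in CPM (counts scaled to library depth with TMM factors) in each of the 6 libraries, with each y axis starting at 0; symbols mark replicate numbers, the horizontal line is the group mean and the bar 1 SD (n = 3). For Klf9, Klf6, Klf5, Klf4, Klf3, Klf10 and Klf13 every treated library lies above every control library, while Klf7, Klf2 and Klf15 overlap.

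The promoter windows of members that rose and of one that did not are printed here so that their sequence can be read beside the expression values. RefSeq gave a window for 8 of the 10 members, from 250 bases before the transcription start to 50 after it (300 bases, build GRCm38.p6), printed 5′ to 3′ on the strand of the gene. Capitals mark matches on either strand to CACCC, the core of the Krüppel-like factor box (reverse complement GGGTG), and to GGGCGG, the GC box (reverse complement CCGCCC). Matches to the 2 motifs can overlap, as they do in the Klf13 window. Klf5, which was called higher, and Klf10 had no window, so neither was searched for any motif. Klf9 lies at chr19:23140976-23141275 on the plus strand, Klf6 at chr13:5861239-5861538 on the plus strand, Klf4 at chr4:55532426-55532725 on the minus strand and Klf2 at chr8:72318812-72319111 on the plus strand.
Klf9: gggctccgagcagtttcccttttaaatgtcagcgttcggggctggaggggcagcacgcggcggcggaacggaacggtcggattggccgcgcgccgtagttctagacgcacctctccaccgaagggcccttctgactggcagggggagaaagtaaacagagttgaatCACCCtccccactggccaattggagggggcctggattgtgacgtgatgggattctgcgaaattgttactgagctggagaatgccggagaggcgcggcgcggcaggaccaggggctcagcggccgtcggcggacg
Klf6: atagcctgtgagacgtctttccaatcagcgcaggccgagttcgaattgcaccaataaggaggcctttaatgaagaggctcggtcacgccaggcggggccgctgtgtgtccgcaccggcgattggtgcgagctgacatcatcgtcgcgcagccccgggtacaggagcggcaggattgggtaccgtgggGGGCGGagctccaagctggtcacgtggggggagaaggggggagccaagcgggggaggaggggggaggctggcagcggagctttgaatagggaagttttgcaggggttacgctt
Klf4: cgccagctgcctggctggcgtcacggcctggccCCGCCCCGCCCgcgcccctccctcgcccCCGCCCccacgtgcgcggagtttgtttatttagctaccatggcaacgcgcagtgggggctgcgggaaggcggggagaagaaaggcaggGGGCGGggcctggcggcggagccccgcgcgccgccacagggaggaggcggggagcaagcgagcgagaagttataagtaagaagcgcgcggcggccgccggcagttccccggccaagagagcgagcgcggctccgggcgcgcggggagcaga
Klf2: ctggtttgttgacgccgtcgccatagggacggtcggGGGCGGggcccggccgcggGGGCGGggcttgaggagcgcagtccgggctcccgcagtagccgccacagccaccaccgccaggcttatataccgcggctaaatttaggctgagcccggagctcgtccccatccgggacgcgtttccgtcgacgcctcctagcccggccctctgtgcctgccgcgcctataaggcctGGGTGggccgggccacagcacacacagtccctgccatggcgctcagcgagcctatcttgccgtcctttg
The windows are rich in G and C, from 58.3% in Klf7 to 76.7% in Klf3, where the median of 32851 RefSeq windows was 52.7%. Klf9 held 1 CACCC core and 0 GC boxes, Klf6 held 0 and 1, Klf4 held 0 and 4, and Klf2 held 1 and 2. Of the windows not printed, Klf3 was the densest, with 5 CACCC cores and 6 GC boxes. A CACCC core was present in 57.5% of all windows and a GC box in 35.7%. The hexamer AGAACA, bound by 1 subunit of the glucocorticoid receptor and searched on both strands, was found in 0 of the 8 windows and in 19.0% of all windows. The palindromic receptor element, GNACA and TGTNC with 3 bases between them, was also found in 0 of the 8, and in 0.475% of all windows. The absence of a match says only that these letters are not in this window. For Klf9, a hormone-responsive enhancer farther upstream has been described in frog and mouse, outside the window shown.

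Klf9, a repressor of the Sin3A group that slows proliferation in several epithelia and is induced by glucocorticoid and thyroid hormone, changed most. Its gene (ENSMUSG00000033863) lies on chromosome 19 from 23141226 to 23168134, plus strand, build GRCm38, and overlaps the miRNA gene Mir1192 on the same strand. Its level was 30.8, 30.7 and 28.3 CPM in control replicates 1, 2 and 3 and 73.5, 62.6 and 82.3 CPM in corticosterone replicates 1, 2 and 3. The lowest treated library, replicate 2, was about double the highest control, so the groups lay far apart. Mean levels were 30.0 ± 1.41 CPM in controls and 72.8 ± 9.87 CPM with corticosterone (SD, n = 3). The log2 fold change was 1.28 (SE 0.10, 95% interval 1.05 to 1.51; edgeR quasi-likelihood, Benjamini-Hochberg adjusted p = 0.00106). Only 176 of 17283 tested genes had a larger log2 fold change. The call held without each library in turn, with log2 fold changes of 1.19 to 1.38 and an adjusted p of at most 0.0171 (edgeR).

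Klf10 and Klf13, the other members of that group, differed much less. Klf10, first known as a TGF-beta inducible early gene that restrains growth, had 34.4, 34.1 and 29.4 CPM in the controls and 39.7, 35.4 and 41.8 CPM in the treated libraries. Its log2 fold change of 0.26 (95% interval 0.05 to 0.47) did not pass after adjustment (edgeR, adjusted p = 0.212). Klf13, the closest relative of Klf9 and a regulator of the chemokine gene Ccl5 in T lymphocytes, had 56.0, 54.9 and 50.2 CPM in controls and 65.0, 56.0 and 67.8 CPM with corticosterone. In CPM the treated libraries of both genes lay above their controls, but corticosterone replicate 2 was barely above the highest control, least of all for Klf13. In FPKM the Klf13 groups overlapped, with 6.49 in corticosterone replicate 2 against 6.59 in control replicate 1. Klf13 had a log2 fold change of 0.23 (95% interval 0.04 to 0.42; edgeR, adjusted p = 0.221). Klf13 overlaps Gm27252 and E030018B13Rik on the opposite strand, and its counts are uncertain because the strand setting of the counting is unknown here.

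Among the activators, Klf6 rose most and was the most abundant member in both groups. Klf6 is a GC-box factor induced by tissue injury and described as a tumour suppressor in human carcinomas. The gene (ENSMUSG00000000078) lies on chromosome 13 from 5861482 to 5870394, plus strand, with no other annotated gene across it. Its level was 202, 190 and 189 CPM in controls and 352, 284 and 390 CPM with corticosterone. Controls were tight and the treated libraries spread more widely, with replicate 2 the lowest of them but still well above the highest control. Means were 193 ± 7.15 and 342 ± 53.8 CPM (SD, n = 3). This gave a log2 fold change of 0.82 (SE 0.11, 95% interval 0.58 to 1.07; edgeR, adjusted p = 0.00689). The call was lost narrowly without control replicate 2 (edgeR, adjusted p = 0.0662) and without corticosterone replicate 1 (edgeR, adjusted p = 0.0504), while the log2 fold change stayed between 0.72 and 0.94.

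Klf7, the close relative of Klf6 with a known part in axon growth, did not pass. It had 29.3, 24.0 and 21.5 CPM in controls and 29.4, 22.7 and 34.1 CPM with corticosterone, so the groups overlapped. Its log2 fold change of 0.21 had a 95% interval from -0.16 to 0.58 (edgeR, adjusted p = 0.571), which leaves room for a change of up to 1.49-fold. Klf7 overlaps Gm26649 and Gm13748 on the opposite strand, and its counts are uncertain for that reason.

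Klf5, a factor of proliferating basal and crypt epithelium, rose from 62.8 ± 6.36 to 92.4 ± 12 CPM (SD, n = 3). Single libraries read 69.1, 63.0 and 56.4 CPM in controls and 97.3, 78.8 and 101 CPM with corticosterone, again with treated replicate 2 closest to the controls. The log2 fold change was 0.56 (SE 0.11, 95% interval 0.31 to 0.81; edgeR, adjusted p = 0.0358). Klf4, a differentiation factor of skin and gut epithelium and one of the reprogramming factors, had 16.3, 19.7 and 20.6 CPM in controls and 25.8, 25.2 and 27.4 CPM with corticosterone. Here the 3 treated libraries lay close together, and the spread was among the controls, where replicate 1 was low. Its log2 fold change of 0.47 (SE 0.10, 95% interval 0.24 to 0.70) stood at the edge of the threshold (edgeR, adjusted p = 0.0495). Both calls were lost without control replicates 1, 2 or 3 and without corticosterone replicates 1 or 3, with adjusted p between 0.0775 and 0.179 for Klf5 and between 0.0946 and 0.194 for Klf4 (edgeR). Klf5 lies on chromosome 14 from 99298691 to 99315036, plus strand, and Klf4 on chromosome 4 from 55527143 to 55532466, minus strand. No other annotated gene overlaps either.

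Klf2, an activator of endothelial quiescence and of T cell trafficking, gave nearly equal levels in both groups. It had 7.10, 8.21 and 7.60 CPM in controls and 8.32, 7.62 and 6.76 CPM with corticosterone, and the groups overlapped fully. The log2 fold change was -0.01 with a 95% interval from -0.28 to 0.26 (edgeR, adjusted p = 0.968), so changes of up to 1.20-fold in the upward direction lie within it. The sign turned positive without control replicate 2 (0.041) and without corticosterone replicate 3 (0.064).

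Klf3, the member that represses through CtBP and limits fat cell differentiation, did not pass, although its groups did not overlap. It read 67.3, 64.7 and 64.9 CPM in controls and 86.0, 73.1 and 91.7 CPM with corticosterone. Controls lay close together, and the treated libraries spread more widely, with replicate 2 nearest to the controls. The log2 fold change was 0.35 (SE 0.084, 95% interval 0.16 to 0.54; edgeR, adjusted p = 0.0749). Klf3 overlaps Gm20033 on the opposite strand and C230096K16Rik on the same strand, so its counts are uncertain.

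Klf15, which drives amino acid breakdown and gluconeogenic programmes in muscle and liver and is a strong glucocorticoid target there, was barely detected in 4T1 cells. Counts were 0, 4 and 8 in controls and 5, 11 and 3 with corticosterone, in libraries of more than 62 M counts. The value of 0 in control replicate 1 allows up to 0.0473 CPM (3 counts of that library, counting error only). The groups overlapped, and at this depth no difference was detectable.

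**Figure D2:**
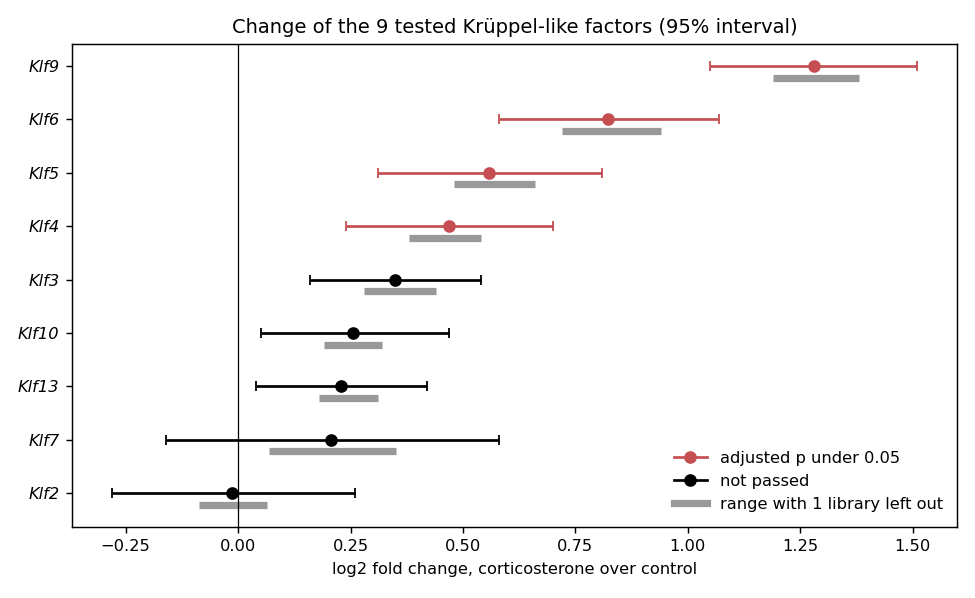
Log2 fold change, corticosterone over control, of the 9 tested members with 95% intervals from the edgeR fit (points and bars) and the range of the estimate when 1 library is left out (grey). The 4 members with an adjusted p under 0.05 are Klf9 (1.28), Klf6 (0.82), Klf5 (0.56) and Klf4 (0.47); the interval of Klf7 and that of Klf2 cross 0.

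Per transcript length, Klf6 stood far above the others. In controls its level was 38.9 ± 1.57 FPKM (SD, n = 3), followed by Klf5 at 10.7 ± 1.12 FPKM. Below them came Klf10 (6.89 ± 0.619 FPKM), Klf13 (6.30 ± 0.385 FPKM), Klf9 (5.50 ± 0.282 FPKM), Klf4 (5.46 ± 0.633 FPKM) and Klf3 (5.15 ± 0.130 FPKM). Of these neighbours in the order, Klf10 and Klf13 overlapped in range, as did Klf9 and Klf4, and Klf4 and Klf3. Klf2 (3.65 ± 0.265 FPKM) and Klf7 (2.71 ± 0.443 FPKM) were lowest among the tested members, and Klf15 stood at 0.0182 FPKM.

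With corticosterone the order changed mainly through Klf9, which moved from rank 5 to rank 3. It reached 13.4 ± 2 FPKM (SD, n = 3), overlapped the range of Klf5 (15.8 ± 2.27 FPKM) and lay above Klf10 (8.27 ± 0.811 FPKM). Klf6 remained first at 69.3 ± 11.8 FPKM. The summed level of the 10 members was 88.7, 85.7 and 81.5 FPKM in controls and 140, 114 and 152 FPKM with corticosterone. Klf6 alone made up 45.9, 44.7 and 46.4% of that sum in controls and 51.2, 49.6 and 52.5% with corticosterone. The share of Klf9 was 6.40, 6.59 and 6.35% in controls and 9.76, 9.96 and 10.1% with corticosterone, so that treated replicate 2 did not stand apart in this share as it did in the level.

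**Figure D3:**
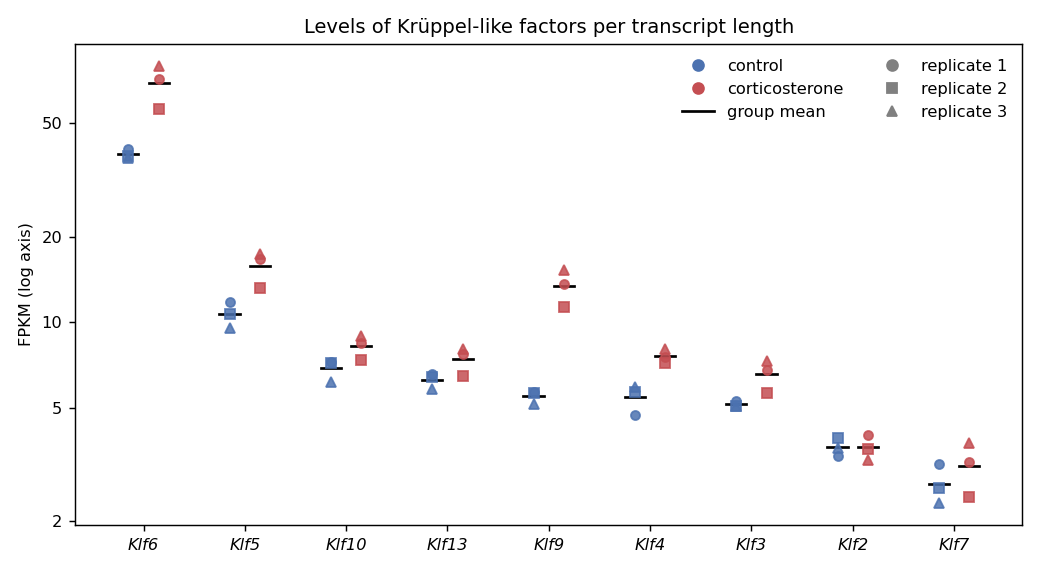
FPKM (log axis) of the 9 tested members, ordered by their control mean, with each library as a point and the group mean as a line. Klf6 lies above all others in both groups, and Klf9 climbs from 5.50 to 13.4 FPKM, past Klf10, Klf13 and the rest of the middle group.

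The size of the differences varied among treated libraries in the same way for most members. Relative to the control mean on the log2 CPM scale, Klf9 stood at 1.29, 1.06 and 1.46 in corticosterone replicates 1, 2 and 3, Klf6 at 0.86, 0.56 and 1.01, and Klf5 at 0.64, 0.33 and 0.69. Klf3, Klf10, Klf13 and Klf7 were also lowest in treated replicate 2 (0.16, 0.12, 0.06 and -0.12), and Klf4 varied least (0.46, 0.42 and 0.54). Treated replicate 2 had the highest ribosomal protein score (0.111), but treated replicates 1 and 3 lay farther from the control mean (-0.192 and -0.246). Because those scores were below all controls, the score and the treatment cannot be fully told apart. With that ribosomal protein score entered as a covariate, edgeR called 5 members higher: Klf9 (1.16), Klf6 (0.68), Klf4 (0.46), Klf5 (0.43) and Klf3 (0.25, edgeR adjusted p = 0.0025), where 5.07% of all tested genes were higher. The same 5 were called with offsets for transcript GC content and length (2.65% of all genes higher) and with DESeq2 (4.04%). Without corticosterone replicate 2, 7 members rose, namely Klf9, Klf6, Klf5, Klf4, Klf3, Klf10 and Klf13, but 10.5% of all tested genes then rose too.

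**Figure D4:**
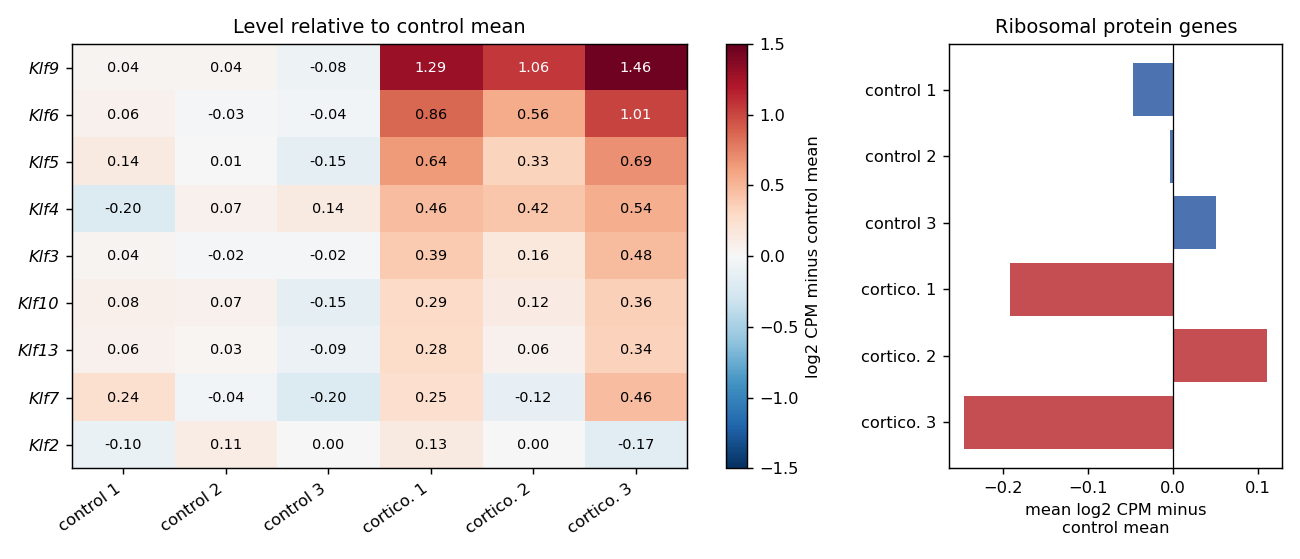
Left, log2 CPM of each tested member minus its control mean, per library (values printed in the cells); right, the mean log2 level of 82 ribosomal protein genes relative to the control mean. Treated replicate 2 has the lowest treated value of every member but Klf2 and the highest ribosomal protein score (0.111).

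Ratios of closely related members within a library do not depend on its depth. The 3 pairs were chosen after the values of their members were seen. The ratio of Klf9 to Klf13 in FPKM was 0.862, 0.875 and 0.882 in controls and 1.77, 1.75 and 1.90 with corticosterone, a 2.07-fold difference in which treated replicate 2 lay beside replicate 1. Klf6 to Klf7 went from 12.8, 14.7 and 16.3 in controls to 22.2, 23.2 and 21.2 (1.53-fold). Klf4 to Klf2 went from 1.39, 1.45 and 1.64 to 1.88, 2 and 2.45 (1.40-fold). In each pair all treated libraries lay above all controls. Each pair sets a member that rose over one that did not pass, so these ratios describe the calls above on another scale and were not tested.

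**Figure D5:**
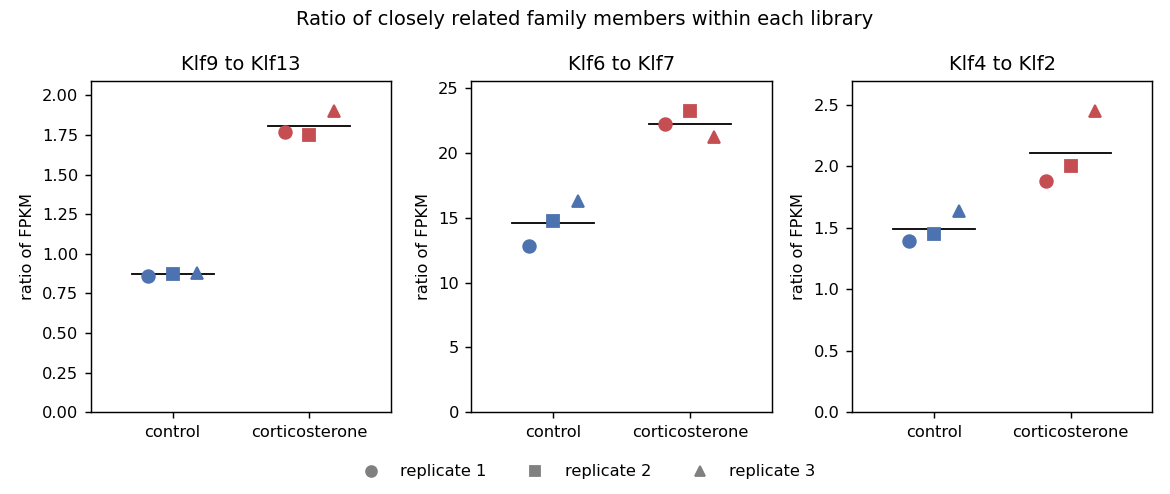
Ratio of FPKM between closely related members in each library (y axes start at 0, lines are group means). The ratio of Klf9 to Klf13 sits at 0.862 to 0.882 in controls and at 1.75 to 1.90 with corticosterone, and in each of the 3 pairs the groups do not overlap.

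Other genes with profiles close to those of the called members were sought among 7439 genes with a mean of at least 5 FPKM, by the root mean square difference of log2 CPM relative to the control mean over the 6 libraries. Nearest to Klf9 were the laminin chain gene Lama3 (difference 0.144, log2 fold change 1.15), the MAP kinase phosphatase gene Dusp7 (0.151 and 1.12) and Tent5b (0.162 and 1.19). For Klf6 they were the efflux transporter gene Abcb1b (0.0931 and 0.78), Gm21092 (0.113 and 0.80, which did not pass) and the formin gene Fmnl2 (0.123 and 0.66). Klf5 was closest to Fam110c (0.0425 and 0.55), Dock9 (0.0437 and 0.55, which did not pass) and Tead4, a partner of YAP (0.0674 and 0.64). Klf4 was closest to the thioesterase gene Acot2 (0.033 and 0.50), the stress factor gene Atf3 (0.0644 and 0.43) and Adam8 (0.0711 and 0.51). The profiles of Klf9 and Klf6 had no neighbour as near as those of Klf5 and Klf4 did. This measure depends on the size of the change, and whether that accounts for the difference was not tested. Log2 fold changes above those of Klf9 and Klf6 were seen in 176 and 496 of all 17283 tested genes, against 978 for Klf5 and 1217 for Klf4. These counts were not limited to the 7439 genes compared here.

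Among the other Krüppel-like factor genes and the related Sp factors 0 were called over all 6 libraries. Across all tested genes 1.35% rose and 1.46% fell, so 0 in lists this small is close to those shares. Some of these factors were called higher without corticosterone replicate 2, a fit in which 10.5% of all tested genes were higher. Of 7 further Klf genes 6 were in the table and 5 were tested, with 0 called in either direction (0 also at an unadjusted p under 0.05) and a median log2 fold change of 0.22. The lowest p belonged to Klf11, a Sin3A group factor, at 9.65, 8.11 and 7.74 CPM in controls and 10.7, 8.29 and 12.4 CPM with corticosterone (log2 fold change 0.30), and to Klf12, a CtBP group factor (0.72). Klf12 was low, at 0.598 to 0.644 CPM in controls and 1.32, 0.445 and 1.33 CPM in treated replicates 1, 2 and 3, and it overlaps genes on the opposite strand. Without corticosterone replicate 2 both were called higher, Klf11 at 0.44 and Klf12 at 1.09 (edgeR, adjusted p = 0.0414 and 0.0209). Of 9 Sp genes 7 were in the table and 5 were tested, with 0 called (0 at an unadjusted p under 0.05) and a median of 0.25. That median includes Sp6, with counts of 276, 205 and 0 in controls and 298, 338 and 263 with corticosterone, and was 0.18 over the other 4 genes. Sp4 (0.31) and Sp3 (0.25) had the lowest p, both with treated replicate 2 inside the control range or below it, and Sp3 overlaps genes on the opposite strand. Without that library Sp4 (0.43), Sp3 (0.42) and Sp1 were called higher (edgeR, adjusted p = 0.0319 for Sp4 and 0.00615 for Sp3).

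Among genes whose products work on or with Krüppel-like factors 0 passed in the edgeR fit with treatment as the only factor. Sap30, Fbxo32, Hdac1, Kat2b and Smurf1 passed in other fits of all 6 libraries. Over all tested genes 1.35% rose and 1.46% fell in the treatment-only fit, so 0 of 14, 10 or 5 genes is close to those shares. No such share was counted for the unadjusted p given in brackets below. Of 14 corepressors and coactivators 0 passed (3 at an unadjusted p under 0.05), with a median of -0.04. Sap30, a Sin3 complex subunit, had a log2 fold change of 0.25 and the deacetylase gene Hdac1 one of -0.15 (edgeR, adjusted p = 0.124 and 0.212). With the ribosomal protein covariate Hdac1 (edgeR, adjusted p = 0.0459) and Kat2b were called lower. In that fit 5.07% of all tested genes were higher, and 1790 were called in either direction. Sap30 was called higher with DESeq2 (adjusted p = 0.0397) and, in edgeR, with the ribosomal protein covariate (adjusted p = 0.0428), with GC and length offsets (adjusted p = 0.0301) and without corticosterone replicate 2 (adjusted p = 0.0452). Without that library 6 of the 14 were called higher and 2 lower. In that fit 10.5% of all 17862 tested genes were higher, and 3670 were called in either direction. Of 10 ubiquitin ligases and related turnover factors 0 passed (2 at an unadjusted p under 0.05), with a median of 0.04. Fbxo32, an F-box gene of muscle atrophy, had a log2 fold change of -0.40 (edgeR, adjusted p = 0.0749) and Smurf1 one of 0.15, and Fbxo32 overlaps a gene on the opposite strand. Smurf1 was called higher with the ribosomal protein covariate (edgeR, adjusted p = 0.0411) and without corticosterone replicate 2 (edgeR, adjusted p = 0.0213). Fbxo32 was called lower with DESeq2 (adjusted p = 0.00579) and, in edgeR, with the ribosomal protein covariate (adjusted p = 0.0065), with GC and length offsets (adjusted p = 0.00505) and without corticosterone replicate 2 (adjusted p = 0.0281). Without that library 3 of the 10 were called higher and 1 lower, again beside 10.5% of all tested genes higher. The 5 genes upstream of Klf2 and Klf4, the kinases Mapk7 and Map2k5 and the Mef2 factors, had a median of 0.05 and 0 passed (0 at an unadjusted p under 0.05). Mef2a stood at 0.12 and Mef2d at -0.04, and both overlap genes on the opposite strand. Without corticosterone replicate 2 Mef2a was called higher (edgeR, adjusted p = 0.0078).

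Of 30 genes reported as targets of Krüppel-like factors 29 were in the table and 26 were tested. Of these 2 fell, 0 rose and 24 did not pass, with 14 log2 fold changes above 0, 12 below and a median of 0.04. At an unadjusted p under 0.05 there were 7, of which 4 were higher and 3 lower. The share of all tested genes at that unadjusted threshold was not counted, so 7 of 26 cannot be read as an excess. The 4 higher ones, named after their values were seen, were the growth factor gene Vegfa (log2 fold change 0.33), the keratin gene Krt19 (0.24) and the cell cycle inhibitor genes Cdkn1c (1.11) and Cdkn1a (0.17), with edgeR adjusted p of 0.0635, 0.208, 0.277 and 0.291. Cdkn1c was low, with counts of 24, 30 and 36 in controls and 46, 34 and 114 in corticosterone replicates 1, 2 and 3, and its groups overlapped. Both Cdkn1c and Cdkn1a overlap a gene on the opposite strand. Vegfa was among the genes called higher with DESeq2, with the ribosomal protein covariate, with GC and length offsets and without corticosterone replicate 2. Krt19 was called higher with the covariate and with the offsets, where 5.07% and 2.65% of all tested genes were higher. The 3 lower ones were Plau and Fgfbp1, described below, and Eng (log2 fold change -0.32, edgeR adjusted p = 0.0948). Eng, which overlaps Fpgs on the opposite strand, was called lower in the same fits as Vegfa. Across all tested genes 1.35% rose and 1.46% fell in the treatment-only fit of all 6 libraries. Without corticosterone replicate 2, 3 of the 26 were called higher and 5 lower. In that fit 10.5% of all 17862 tested genes were higher, and 3670 were called in either direction. Plau, the urokinase gene, read 357, 389 and 378 CPM in controls and 270, 266 and 266 CPM with corticosterone, with no overlap and a tight treated group. Its log2 fold change was -0.49 (SE 0.052; edgeR, adjusted p = 0.00317), a call that held without each library in turn. Fgfbp1, a carrier of fibroblast growth factors reported as a Klf5 target in human cancer cells, had 55.2, 52.9 and 52.1 CPM in controls and 39.0, 41.3 and 41.3 CPM with corticosterone. Its log2 fold change was -0.40 (SE 0.061; edgeR, adjusted p = 0.0144), while Klf5 itself was higher in the same libraries. The call of Fgfbp1 held in 2 of the 6 fits with 1 library left out, and its adjusted p reached 0.0975 (edgeR).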

How the data were processed

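The deposited table holds a count and an FPKM value per gene for 6 libraries of 4T1 cells. Per the file headers, the authors deposited raw counts, which are whole numbers. The FPKM values were computed by the authors, per the file headers. Total RNA was used, per the labels' protocols, which name both a column kit and TRIzol. For the aligner, counter, strandedness and read layout, nothing is given in the sources used here. The submitters' processing notes name a human build, yet the gene identifiers are mouse, and of 28154 identifiers 28086 were found in GENCODE M21 (GRCm38), 90.4% with identical coordinates. Coordinates are those of the deposited table.

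Groups came from the treatment label and replicate numbers from the titles. Counts were filtered with filterByExpr (minimum count 10, minimum total 15), which left 17283 genes, scaled by TMM and fitted with edgeR 4.0.16 (R 4.3.3; quasi-likelihood test, treatment as the only factor). The Benjamini-Hochberg adjustment ran over the whole tested table, and a gene rose or fell where its adjusted p was under 0.05. SEs were taken from the quasi-likelihood F. The biological coefficient of variation was 0.135. A floor of 3 counts was 0.0453 to 0.0483 CPM, and covers counting error only. Counts were simulated from this comparison for 17283 genes, 200 of them changed. Of 1.5-fold changes 46% were called and of 2-fold changes 72%, with 12 false calls. The changed genes were drawn at random from all tested genes, and each simulated library varied independently. The simulation held no difference like that between corticosterone replicate 2 and the other treated libraries, so these shares do not describe the members. The members, the related gene lists and the tests were chosen with earlier results of these data known. Genes named were the members, receptor targets as a check, each called gene of a list and the 2 of lowest p in it, and the 3 nearest profiles of each called member. Alternatives were DESeq2 1.42.0, its size factors in edgeR, no filter on low counts, limma 3.58.1 on log2(FPKM + 1) for genes reaching 1 FPKM in 3 libraries, a pseudocount of 0.1, no FPKM filter, the replicate block, each library left out and a threshold of 0.01. The ribosomal protein covariate, offsets for the GC content and length of transcripts (available for 99.8% of genes), ratios from counts and an Sp median without Sp6 were added after seeing the data. Protein sequences were not used here.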

Additional observations from a re-analysis of the deposited data

How the results depend on the processing

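Of the Krüppel-like factors 4 were called higher and 0 lower. The count of higher calls was 2 with no low count filter, 2 with the replicate block and 2 at a threshold of 0.01, 1 with limma on log2(FPKM + 1) without a filter, and 1 to 7 with a library left out. It was 5 with DESeq2, 3 with limma on filtered log2(FPKM + 1) and 5 with either adjustment added after seeing the data. The call of Klf9 held under each of these alternatives, and none of them called a member lower. Klf2, at -0.01, ranged from -0.087 (without corticosterone replicate 1) to positive values in 4 fits: 0.041 without control replicate 2, 0.064 without corticosterone replicate 3, 0.0076 with the ribosomal protein score and 0.083 with GC and length offsets. Mef2a, at 0.12, turned to -0.0014 with the ribosomal protein score. For these values the cause was not tested.

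Over all genes 487 were called, against 1131 with DESeq2, 211 with no low count filter, 260 with limma without a filter, 237 with the replicate block, 144 at a threshold of 0.01, 1790 with the ribosomal protein score, 936 with GC and length offsets, and 88 to 3670 with a library left out (the highest without corticosterone replicate 2). In the related lists 2 genes were called, against 6 with DESeq2, 1 with the replicate block, 1 at a threshold of 0.01, 12 with the ribosomal protein score, 8 with GC and length offsets, and 1 to 26 with a library left out. The labels say nothing of pairing, so libraries were not treated as paired. Same-numbered libraries were hardly related (correlations of deviations 0.011, 0.038 and -0.088), and 1 of the 6 libraries correlated best with its own number. With 3 libraries per group these correlations say little about pairing. With the replicate block Klf5 and Klf4 were not called (edgeR, adjusted p = 0.0618 and 0.0865). The depth limits Klf15 most, with at most 11 counts in a library.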
